A study of Mus musculus with 28 samples.

Results

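The genes of the extracellular matrix and of the cells that make it were followed in mouse pancreatic islets. A list of 46 symbols was used, covering collagens, matrix glycoproteins, proteoglycans, crosslinking enzymes, matrix proteases with their inhibitors, and contractile, pericyte and fibroblast surface genes. Ccn2 and Ctgf are names of 1 gene, so the list held 45 genes. Of these, 40 had a row under their symbol among the 14219 genes of the deposited table, with the shared gene listed as Ctgf. Fbln1, Loxl2, Myl9, Cnn1 and S100a4 had no row under those symbols. A total of 39 members reached 1 CPM (reads scaled to the library size) in at least 6 libraries and were tested. Thbs2 did not.

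The study measured bulk RNA from hand-picked islets of 28 male mice aged 10 to 12 weeks on a mixed C57Bl6 and 129sv background, 1 library per mouse from 120 to 150 islets kept overnight in culture. All mice carried Klf6 alleles flanked by loxP sites (Klf6 flox/flox). Mice labelled βKlf6KO also carried 1 Ins1 allele with Cre recombinase (Ins1 Cre/+), which is active in β cells, whereas mice labelled control had Ins1 +/+. Treatment was saline or the insulin receptor antagonist peptide S961, with 6 control and 6 βKlf6KO mice after saline and 8 of each after S961. The dose and duration of S961 were not given in the labels. The question set by the design was which genes differed between the genotypes under each treatment.

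Islets sit in a thin capsule and along capillaries whose basement membrane is laid down largely by endothelial cells. Fibroblasts and pancreatic stellate cells, the main collagen producers of the pancreas, surround and enter islets. When stellate cells are activated they gain smooth muscle actin and secrete fibrillar collagen, a programme driven in many tissues by TGF-β and PDGF. Pericytes wrap the capillaries and share several contractile genes with activated stellate cells. In bulk RNA, fewer cells of a type and less RNA per cell cannot be told apart.

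Libraries held 28868638 to 45001633 reads over the listed genes. At that depth 3 reads, the most that a count of 0 allows, equal 0.0685 to 0.105 CPM, and this covers counting error only. Klf6 RNA did not follow the genotype labels. It stood at 7.0 ± 0.42 log2 CPM (SD, n = 6) in control and 6.97 ± 0.26 (n = 6) in βKlf6KO islets after saline, and at 6.94 ± 0.72 (n = 8) and 7.22 ± 0.51 (n = 8) after S961. Genotypes below are therefore those of the labels, and counts over the whole gene do not separate the deleted part. The tissue label fitted the insulin genes, with Ins2 at 12.3 to 17.2 log2 CPM over the libraries. A group of 3 libraries stood apart along the first principal component of all genes, which held 54.9% of the variance. They were control saline replicate 4, control S961 replicate 2 and control S961 replicate 8, and results that rest on them are given with and without them. Fibroblast and stellate markers outside the list differed widely in depth. Pdgfra, a fibroblast receptor that is not on the list, had 5 to 389 reads and Dpt had 10 to 162. Des, an intermediate filament gene of stellate and mural cells, had 4 to 154. Other markers of these lists were deeper, with 357 to 959 reads for Cd34, 509 to 5198 for Gsn and 437 to 2699 for Vim.

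Promoter sequence was matched for 26 of the 40 members in RefSeq windows on GRCm38.p6, of which the 250 bases before the start were used. Shown here are the windows of the 3 members called after saline, of Timp1, which was called after S961, and of Col4a1, a basement membrane collagen that was not called. Each is written 5′ to 3′ on the strand of the gene. Capitals mark CCAAT boxes (CCAAT), GC boxes (GGGCGG) and TATA boxes (TATAAA), found on either strand, and no base fell in more than 1 motif.
Col1a2: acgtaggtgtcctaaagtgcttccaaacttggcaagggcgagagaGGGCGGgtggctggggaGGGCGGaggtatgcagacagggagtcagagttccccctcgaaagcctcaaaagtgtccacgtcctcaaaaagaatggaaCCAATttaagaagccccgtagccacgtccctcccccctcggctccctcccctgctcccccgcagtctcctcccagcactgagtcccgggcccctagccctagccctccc
Col3a1: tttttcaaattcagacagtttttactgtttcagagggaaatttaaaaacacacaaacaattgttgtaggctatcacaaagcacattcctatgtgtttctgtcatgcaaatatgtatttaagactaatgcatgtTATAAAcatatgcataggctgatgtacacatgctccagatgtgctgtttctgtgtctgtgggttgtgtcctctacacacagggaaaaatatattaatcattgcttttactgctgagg
Grem1: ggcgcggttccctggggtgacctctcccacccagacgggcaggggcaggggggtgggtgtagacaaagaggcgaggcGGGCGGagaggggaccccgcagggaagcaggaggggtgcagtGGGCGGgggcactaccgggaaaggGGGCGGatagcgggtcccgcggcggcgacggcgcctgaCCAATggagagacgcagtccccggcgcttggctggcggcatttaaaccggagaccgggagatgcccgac
Timp1: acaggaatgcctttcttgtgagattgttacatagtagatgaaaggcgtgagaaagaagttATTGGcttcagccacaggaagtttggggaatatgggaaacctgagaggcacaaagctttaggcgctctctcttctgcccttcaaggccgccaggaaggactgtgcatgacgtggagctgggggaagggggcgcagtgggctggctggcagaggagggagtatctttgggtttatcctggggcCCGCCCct
Col4a1: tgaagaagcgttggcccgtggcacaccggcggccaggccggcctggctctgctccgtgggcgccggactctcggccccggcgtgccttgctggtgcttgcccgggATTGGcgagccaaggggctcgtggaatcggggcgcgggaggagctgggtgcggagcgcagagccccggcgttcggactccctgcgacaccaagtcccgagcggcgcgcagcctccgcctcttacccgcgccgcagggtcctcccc
The window of Col1a2 lies at chr6:4505368-4505617 (plus strand), that of Col3a1 at chr1:45311288-45311537 (plus) and that of Grem1 at chr2:113758649-113758898 (minus). The window of Timp1 lies at chrX:20869916-20870165 (plus) and that of Col4a1 at chr8:11312827-11313076 (minus). GC content ran from 35.2% in Col3a1 to 74.4% in Col4a1. Col3a1 had a TATA box and neither other motif, whereas Grem1 had 3 GC boxes and a CCAAT box. The 26 members had 31 windows, since a gene can have several starts. The CCAAT box was present in 35.5% of these windows (11 members) and in 33.8% of all 32851 windows of the same length. The GC box was present in 58.1% (16 members) against 32.7%, and the TATA box in 16.1% (Col3a1, Postn, Thbs2 and Tnc) against 12.4%. The CArG box, the motif bound by serum response factor, was searched by its standard form and was in none of the 31 windows, against 1.47% of all windows. A match is a description of the letters only.

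In islets labelled βKlf6KO 3 members were called higher than in control islets after saline and 15 after S961, and none was called lower. Calls rest on a limma fit of log2 CPM to the 28 libraries, with p-values adjusted by the Benjamini-Hochberg method over all 13591 genes and a threshold of 0.05. After saline 2.78% of all genes were called (2.09% higher and 0.692% lower), and after S961 4.36% (2.35% higher and 2.01% lower). The median log2 difference over the 39 tested members was 0.71 after saline and 1.06 after S961, beside 0.00 and 0.02 over all genes. After S961 38 of the 39 lay above 0, beside 52.4% of all genes, and after saline 32, beside 49.9%. These counts describe the members that passed the filter on low values. Col1a2 and Col3a1 were called under both treatments, and Grem1 was called after saline and not after S961, with the difference of its responses given beside its values.

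The S961 result was uneven over sequencing lanes. Each lane held 2 βKlf6KO and 2 control libraries after S961. Among the 15 called members, 9 were higher in βKlf6KO islets within lane 4, with a median difference of 0.14, while all 15 were higher within lanes 5, 6 and 7, with medians of 1.87, 1.27 and 1.68. On 2 against 2 libraries, and without a test, the difference therefore did not hold within lane 4. With lane as a term in the fit, 14 members were called after S961, all among the 15, and 3 after saline. Of all 13591 genes, 670 and 397 were called in that fit. After saline the 3 called members were higher within each of the 4 lanes, where a group had 1 or 2 libraries. Without the 3 libraries that stood apart, 5 members were called after saline, with Col6a1 and Fn1 added. After S961 12 were called, 9 of them among the 15. Of all 13591 genes, 690 were called after saline and 858 after S961 without those libraries, beside 378 and 593 with them. Col6a1, Col15a1, Fbn1, Sparc, Mmp14 and Timp2 were the 6 that lost the call, and Thbs1, Timp3 and Ctgf gained it. βKlf6KO S961 replicate 8 had the highest acinar and ductal marker sums. Without it and those 3 libraries, 6 members were called after S961, beside 436 of all genes. Of the 6, 4 were among the 15 (Col1a2, Col3a1, Col5a2 and Postn).

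**Figure D1:**
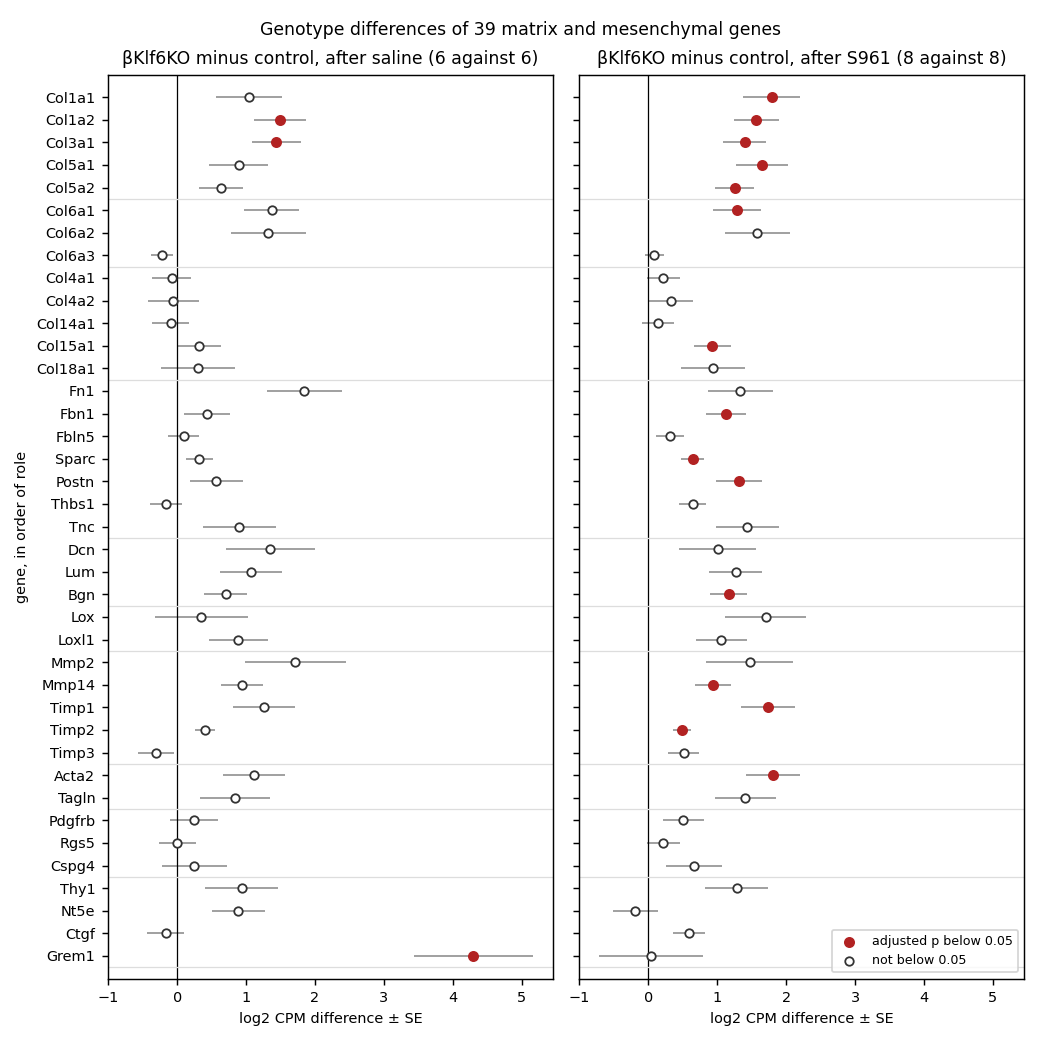
Log2 CPM difference between islets labelled βKlf6KO and control (x axis, points with bars of 1 standard error) for the 39 tested genes in order of role (y axis), after saline and after S961, with filled points for an adjusted p below 0.05. The 5 fibrillar collagens at the top are all filled after S961, from 1.25 to 1.79, while Grem1 at the bottom stands at 4.30 after saline and 0.04 after S961.

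The fibrillar collagens, which form the banded fibres of connective tissue, were all called after S961 (5 of 5), and Col1a2 and Col3a1 also after saline. Col1a1, the α1 chain of type I collagen, ranged from -0.41 to 2.66 log2 CPM (median 1.73) in control and from 2.09 to 4.46 (median 3.51) in βKlf6KO islets after S961. All 8 βKlf6KO libraries lay above the control mean and 6 lay above every control library. The difference was 1.79 ± 0.41 (SE, 8 against 8 mice, limma adjusted p = 0.019), or 3.47-fold. It was 1.27 ± 0.37 without the 3 libraries that stood apart, and stayed called (limma adjusted p = 0.0405). After saline Col1a1 ranged from 0.57 to 2.10 (median 1.62) in control and from 1.89 to 4.33 (median 2.25) in βKlf6KO islets. The highest value there, 4.33, was that of βKlf6KO saline replicate 6, and the difference of 1.04 ± 0.48 did not pass (limma adjusted p = 0.306).

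Col1a2, the α2 chain of the same collagen, ranged from 0.74 to 2.71 (median 2.11) in control and from 2.56 to 4.82 (median 3.63) in βKlf6KO islets after saline. Of the 6 βKlf6KO libraries, 5 were above every control library, so that the groups overlapped in 1 library. The difference of 1.5 ± 0.38 (limma adjusted p = 0.0265) was a 2.82-fold higher level. After S961 it ranged from 1.51 to 3.52 (median 2.04) in control and from 2.81 to 4.54 (median 3.79) in βKlf6KO islets. Here 5 of 8 were above every control library, and the difference was 1.57 ± 0.33 (limma adjusted p = 0.0111).

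Col3a1, the single chain of type III collagen, ranged from 1.89 to 3.75 (median 2.91) in control and from 3.10 to 5.51 (median 4.35) in βKlf6KO islets after saline. The lowest βKlf6KO library, replicate 2, fell within the control range and the other 5 were above it. The difference was 1.44 ± 0.36 (limma adjusted p = 0.0253). After S961 Col3a1 ranged from 2.59 to 4.51 (median 3.32) in control and from 3.71 to 5.49 (median 4.88) in βKlf6KO islets. The difference of 1.40 ± 0.31 (limma adjusted p = 0.0171) was close in size to that after saline. The saline calls of both genes depended on single mice. Without βKlf6KO saline replicate 6 the limma adjusted p rose to 0.0989 for Col1a2 and 0.0928 for Col3a1, and both calls were also lost without control saline replicates 1 or 6 or without βKlf6KO saline replicate 3. In a fit of only the 2 saline groups it was 0.0534 and 0.0568, which also ended both calls.

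Type V collagen is a minor component that sits inside type I fibres. Its α1 gene, Col5a1, ranged from -1.08 to 1.98 (median 0.75) in control and from 1.17 to 2.73 (median 2.20) in βKlf6KO islets after S961, a difference of 1.65 ± 0.38 (limma adjusted p = 0.0183). The α2 gene, Col5a2, ranged from 2.46 to 3.94 (median 2.99) and from 3.47 to 4.71 (median 4.48), a difference of 1.25 ± 0.28 (limma adjusted p = 0.0171). For both, the 8 βKlf6KO libraries were above the control mean, and 4 for Col5a1 and 6 for Col5a2 were above every control library. After saline the differences were 0.89 ± 0.43 and 0.64 ± 0.32 and did not pass. The S961 differences of Col1a2, Col3a1, Col5a1 and Col5a2 were 1.42, 1.29, 1.17 and 1.14 without the 3 libraries that stood apart. Each of these genes stayed called.

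**Figure D2:**
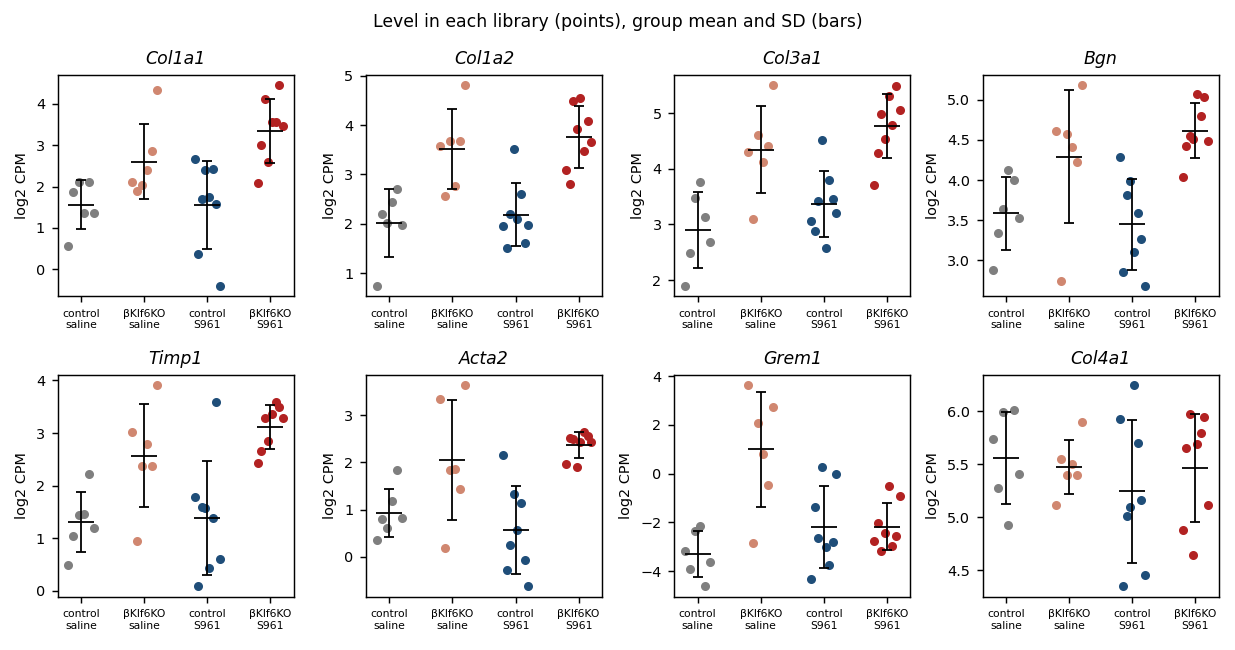
Log2 CPM of 8 genes in every library (points; y axis) by labelled group (x axis), with group means and SD bars. After S961 the βKlf6KO points of Acta2 lie between 1.89 and 2.64 while the control points spread from -0.62 to 2.15, and Col4a1 overlaps throughout.

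Type VI collagen forms beaded filaments around cells and is built from 3 chains, of which 1 was called. Col6a1 ranged from -0.68 to 2.38 (median 1.40) in control and from 1.31 to 3.56 (median 2.56) in βKlf6KO islets after S961, a difference of 1.29 ± 0.35 (limma adjusted p = 0.0374). Without the 3 libraries that stood apart it was 0.89 ± 0.31 and did not pass (limma adjusted p = 0.0792). After saline it ranged from 0.47 to 1.51 in control and from 1.55 to 3.45 in βKlf6KO islets. It was the only tested member, 1 of 39, whose saline groups did not overlap. Of all genes, 2.46% did not overlap with βKlf6KO higher, so nothing is read from this 1 member. After S961 no member and 0.103% of genes lay apart in that direction. The saline difference of Col6a1, 1.37 ± 0.40, did not pass (limma adjusted p = 0.0627). It passed without those 3 libraries (limma adjusted p = 0.033). Col6a2 differed by 1.32 ± 0.55 after saline and 1.58 ± 0.47 after S961 (limma adjusted p = 0.227 and 0.0515). Col6a3 was more abundant, at 4.81 ± 0.32 log2 CPM (SD, n = 6) in control saline islets, and its differences were -0.22 ± 0.16 and 0.08 ± 0.14. The α3 gene was not compared with the other chains by a test.

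Of 5 basement membrane and other non-fibrillar collagens, 1 was called after S961 and none after saline. Col4a1, a chain of the type IV network of basement membranes, ranged from 4.92 to 6.01 (median 5.57) in control and from 5.12 to 5.90 (median 5.45) in βKlf6KO islets after saline. After S961 it ranged from 4.35 to 6.25 (median 5.13) and from 4.65 to 5.98 (median 5.67). The differences of -0.08 ± 0.28 and 0.22 ± 0.24 did not pass, and the groups overlapped throughout. Col4a2, its partner chain, differed by -0.06 ± 0.37 and 0.33 ± 0.32. Col15a1, a collagen of the outer basement membrane zone, was called after S961 at 0.93 ± 0.27 (limma adjusted p = 0.049), with 1.07 to 3.54 (median 2.45) in control and 2.57 to 4.01 (median 3.54) in βKlf6KO islets. That call held in 6 of the 28 fits that left out 1 library, and without control S961 replicate 2 the limma adjusted p was 0.109. Without the 3 libraries that stood apart the difference was 0.55 ± 0.23 (limma adjusted p = 0.142). Col18a1, the precursor of endostatin, differed by 0.94 ± 0.47 after S961 (limma adjusted p = 0.226) and Col14a1, a fibril-associated collagen, by 0.14 ± 0.23.

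Among matrix glycoproteins 3 of 7 tested were called after S961 and none after saline. Fbn1, the microfibril protein fibrillin-1, ranged from 1.40 to 2.84 (median 1.92) in control and from 2.0 to 3.73 (median 3.25) in βKlf6KO islets, a difference of 1.12 ± 0.29 (limma adjusted p = 0.0314). Sparc, a secreted collagen-binding protein, ranged from 5.31 to 6.57 (median 5.80) and from 6.30 to 6.79 (median 6.44), a difference of 0.64 ± 0.17 (limma adjusted p = 0.033). Postn, the matricellular protein periostin, ranged from 2.76 to 4.28 (median 3.21) and from 3.80 to 5.29 (median 4.49), a difference of 1.32 ± 0.33 (limma adjusted p = 0.0288). In all 3 genes the 8 βKlf6KO libraries were above the control mean and the groups overlapped. Fbn1 differed by 0.96 ± 0.31 and Sparc by 0.52 ± 0.16 without the 3 libraries that stood apart, and neither passed (limma adjusted p = 0.0592 and 0.0545), whereas Postn stayed called. The saline differences of the 3 genes were 0.43 ± 0.33, 0.32 ± 0.19 and 0.57 ± 0.38.

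Fibronectin, Fn1, had a larger difference after saline than those genes without passing the test. It ranged from 0.26 to 3.46 (median 1.55) in control and from 1.67 to 5.20 (median 3.26) in βKlf6KO islets, a difference of 1.85 ± 0.55 (limma adjusted p = 0.0657). After S961 it ranged from 0.09 to 3.49 (median 2.09) and from 1.96 to 4.26 (median 3.49), a difference of 1.34 ± 0.48 (limma adjusted p = 0.0944). The spread within each group was wide, with an SD of 1.14 in control saline islets. The saline difference of Fn1 without the 3 libraries that stood apart was 1.86 ± 0.55 and passed (limma adjusted p = 0.0465). Tnc, tenascin C, differed by 1.44 ± 0.46 after S961 (limma adjusted p = 0.0645) and Thbs1, thrombospondin 1, by 0.65 ± 0.20 (limma adjusted p = 0.0557, and 0.0353 without those libraries). Fbln5, an elastic fibre protein, differed by 0.31 ± 0.20. Thbs2, the member under the filter, averaged -1.05, 0.12, -1.57 and -0.61 log2 CPM in control saline, βKlf6KO saline, control S961 and βKlf6KO S961 islets.

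Of the small leucine-rich proteoglycans, which bind collagen fibres, Bgn was called after S961. It ranged from 2.68 to 4.29 (median 3.43) in control and from 4.04 to 5.07 (median 4.54) in βKlf6KO islets, and 7 of the 8 βKlf6KO libraries were above every control library. The difference was 1.17 ± 0.27 (limma adjusted p = 0.0187), a 2.25-fold higher level. It was 0.94 ± 0.27 without the 3 libraries that stood apart, and stayed called (limma adjusted p = 0.0383). Dcn, decorin, ranged from 0.18 to 3.09 (median 1.61) in control and from -0.02 to 4.68 (median 3.33) in βKlf6KO islets after saline, and from -0.06 to 3.19 (median 2.44) and from 2.15 to 3.92 (median 2.87) after S961. Its differences of 1.35 ± 0.64 and 1.0 ± 0.55 did not pass, and the groups overlapped. Lum, lumican, differed by 1.07 ± 0.45 and 1.27 ± 0.39 (limma adjusted p = 0.236 and 0.0557). The crosslinking enzymes were not called. Lox, lysyl oxidase, ranged from -2.11 to 1.56 (median 0.57) in control and from 0.77 to 3.0 (median 2.11) in βKlf6KO islets after S961, a difference of 1.70 ± 0.58 (limma adjusted p = 0.0822). Loxl1 differed by 1.06 ± 0.37 (limma adjusted p = 0.0878) and had 68 reads or fewer in each library.

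All 5 matrix proteases and inhibitors were higher in βKlf6KO islets after S961, and 3 of the 5 were called. Timp1, a secreted inhibitor of matrix metalloproteinases, ranged from 0.09 to 3.59 (median 1.48) in control and from 2.44 to 3.59 (median 3.28) in βKlf6KO islets. Control S961 replicate 7, the highest control, lay above all but 1 of the βKlf6KO libraries. The difference was 1.74 ± 0.39 (limma adjusted p = 0.0171), or 3.34-fold. It was 1.39 ± 0.39 without the 3 libraries that stood apart, and stayed called (limma adjusted p = 0.0375). Timp2 ranged from 3.28 to 4.29 (median 3.93) and from 3.98 to 4.60 (median 4.45), a smaller difference of 0.48 ± 0.13 (limma adjusted p = 0.0346). Mmp14, the membrane-bound collagenase that with Timp2 activates pro-Mmp2, ranged from 0.93 to 3.02 (median 2.39) and from 2.34 to 3.62 (median 3.27), a difference of 0.93 ± 0.26 (limma adjusted p = 0.043). That call held in 13 of the 28 fits that left out 1 library. Without the 3 libraries that stood apart Timp2 differed by 0.37 ± 0.12 and Mmp14 by 0.63 ± 0.23, and neither passed (limma adjusted p = 0.0598 and 0.0991). Mmp2 itself, a gelatinase, was low, at -3.08 to 1.46 (median -1.77) in control and -1.95 to 3.01 (median -0.26) in βKlf6KO islets. Its difference of 1.47 ± 0.63 did not pass, nor did that of 0.51 ± 0.22 for Timp3, an inhibitor held in the matrix. Without those libraries Timp3 differed by 0.74 ± 0.18 and passed (limma adjusted p = 0.0184). After saline the 5 genes differed by -0.31 (Timp3) to 1.71 (Mmp2) and none passed.

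The contractile gene Acta2, smooth muscle actin, marks activated stellate cells and mural cells. After S961 it ranged from -0.62 to 2.15 (median 0.41) in control and from 1.89 to 2.64 (median 2.46) in βKlf6KO islets, and 6 of the 8 βKlf6KO libraries were above every control. The difference of 1.80 ± 0.39 (limma adjusted p = 0.0145), or 3.49-fold, was the largest of the 15. It was 1.46 ± 0.40 without the 3 libraries that stood apart, and stayed called (limma adjusted p = 0.0327). After saline Acta2 ranged from 0.37 to 1.83 (median 0.81) and from 0.19 to 3.64 (median 1.86), a difference of 1.12 ± 0.45 (limma adjusted p = 0.215). Tagln, the actin-binding protein transgelin, ranged from -0.48 to 2.90 (median 0.53) in control and from 1.26 to 2.84 (median 2.26) in βKlf6KO islets after S961. The difference of 1.40 ± 0.44 did not pass (limma adjusted p = 0.0619), with control S961 replicate 1 highest at 2.90.

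None of the 3 pericyte genes was called under either treatment. Pdgfrb, the receptor through which pericytes are recruited, ranged from 1.19 to 3.59 (median 2.84) in control and from 2.35 to 3.82 (median 3.35) in βKlf6KO islets after S961. Rgs5, a regulator of G-protein signalling enriched in pericytes, ranged from 4.04 to 5.68 (median 4.67) and from 4.60 to 5.36 (median 4.92). Cspg4, the NG2 proteoglycan, had the lowest level of the 3. The S961 differences were 0.51 ± 0.30, 0.22 ± 0.24 and 0.66 ± 0.41, and those after saline were 0.24 ± 0.34, 0.00 ± 0.27 and 0.25 ± 0.47. A test of pericyte genes against collagens was not made, so these values do not show that the roles differ.

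Of the surface and signalling genes, Grem1, a secreted antagonist of bone morphogenetic proteins, was called after saline. Control saline replicates 1 to 6 had 3, 2, 6, 7, 1 and 3 reads, and βKlf6KO saline replicates 1 to 6 had 481, 5, 142, 60, 22 and 253 reads. On the log2 CPM scale the groups ran from -4.62 to -2.16 (median -3.39) and from -2.83 to 3.64 (median 1.43), so 1 βKlf6KO library lay within the control range. The difference was 4.30 ± 0.86 (limma adjusted p = 0.00422). Its size depended on the low control values, since with values floored at 1 CPM it was 1.54, and it was called under both. After S961 the gene had 1 to 41 reads in control and 4 to 27 in βKlf6KO islets, and the difference was 0.04 ± 0.75. The difference of responses for Grem1 was -4.26 ± 1.14, which did not pass over all genes despite an unadjusted limma p of 0.000916. Grem1 passed the filter with 6 libraries, 4 of them βKlf6KO saline.

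Lymphocyte markers were lowest in the 2 βKlf6KO saline libraries with the fewest Grem1 reads. Their summed level over 11 genes was 46.6, 6.73, 57.6, 29.3, 10.0 and 102.1 CPM in replicates 1 to 6, and 7.07 to 14.1 CPM in control saline libraries. Replicate 1 had the most Grem1 reads but not the highest lymphocyte sum, and no correlation was computed. After S961 the highest lymphocyte sum in βKlf6KO islets was 46.2 CPM, in replicate 8, which had 15 Grem1 reads. The highest in control S961 islets was 24.2 CPM, in replicate 4, which had 41. Macrophage marker sums were also lowest in βKlf6KO saline replicates 2 and 5, at 222.1 and 215.4 CPM. In the same comparison Cd22, a B lymphocyte receptor, was called at 2.40 ± 0.51 (limma adjusted p = 0.00689). The part of lymphocytes or macrophages in the Grem1 result was not tested. The other surface and signalling genes were not called. Thy1, a fibroblast surface glycoprotein, differed by 0.94 ± 0.53 and 1.28 ± 0.46, Ctgf, a secreted target of TGF-β, by -0.17 ± 0.27 and 0.59 ± 0.23, and Nt5e, the ectonucleotidase CD73, by 0.89 ± 0.38 and -0.19 ± 0.33, after saline and S961. Ctgf differed by 0.82 ± 0.21 after S961 without the 3 libraries that stood apart, and then passed (limma adjusted p = 0.0216).

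S961 itself was not followed by a called change in any member. In control islets the differences of S961 from saline ran from -0.50 (Thy1) to 1.10 (Grem1), with a median of -0.05. In βKlf6KO islets they ran from -3.16 (Grem1) to 1.28 (Lox), with a median of 0.27. No member and 0 of the 13591 genes were called in either genotype or in the difference of the S961 responses, and voom, limma's model for counts, on the recovered reads also called 0. With values floored at 1 CPM 11 genes, and with library weights 2 genes, were called in βKlf6KO islets, none of them a member. At an unadjusted limma p below 0.05 there were 0 members in control islets, 7 in βKlf6KO islets and 5 in the difference, beside 0.765%, 3.04% and 2.58% of all genes. The 2 smallest of those p-values in βKlf6KO islets were those of Nt5e, at -1.53, and Grem1, at -3.16. For the collagens the difference of responses was 0.75 ± 0.63 for Col1a1, 0.07 ± 0.50 for Col1a2 and -0.04 ± 0.47 for Col3a1. The larger number of calls after S961 than after saline is therefore not a tested difference between treatments.

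Pathway genes outside the list were followed in lists of TGF-β, collagen processing, PDGF, basement membrane and matrix receptor genes. The 26 tested genes of the TGF-β pathway had medians of 0.12 after saline and 0.39 after S961. Of these genes, 1 was called higher in βKlf6KO islets after saline and 3 after S961. That is beside 2.09% of all genes called higher after saline and 2.35% after S961, and the same shares stand beside the counts of genes called higher in the other lists. Nothing is read from a single called gene in a list. Bambi, a decoy receptor, was 0.85 ± 0.20 higher after saline. After S961 Tgfbi, a target of the pathway, and the ligands Tgfb3 and Tgfb1 were 0.86 ± 0.23, 0.95 ± 0.26 and 0.78 ± 0.23 higher (limma adjusted p = 0.0374, 0.0375 and 0.0486). None of 14 collagen processing genes, 5 PDGF pathway genes or 14 further basement membrane genes was called under either treatment, with medians after S961 of 0.17, 0.60 and 0.34. Among 13 matrix receptors, Cd44, the hyaluronan receptor, was 1.02 ± 0.24 higher after saline and Itga5, a fibronectin receptor subunit, 0.98 ± 0.29 higher after S961.

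Other fibroblast markers showed 1 of 16 called after saline and 5 of 16 after S961, all higher. Cthrc1, a secreted protein of collagen-producing fibroblasts, was called under both, at 1.05 ± 0.28 and 1.02 ± 0.24. After S961 Mfap5, a microfibril protein, was 1.59 ± 0.35 higher, Serpinf1, a secreted antiangiogenic factor, 1.69 ± 0.46 higher and Olfml3 0.79 ± 0.23 higher. The fifth was Fstl1, named here after its value of 0.73 was seen. Reads were few for Mfap5 (6 to 77), Cthrc1 (8 to 67) and Serpinf1 (7 to 228). Olfml3 had 62 to 416 and Fstl1 302 to 1142. Among markers not called after S961, Cd34 differed by 0.20, Gsn by 0.01 and Pdgfra by 1.15. Of 12 other mural and stellate genes, Synpo2, an actin-associated protein, was called after saline at 0.99 ± 0.16. Heyl, a Notch target of mural cells, Mcam, an adhesion molecule, and Vim, a mesenchymal intermediate filament, were called after S961 at 1.0 ± 0.22, 0.56 ± 0.16 and 0.93 ± 0.27.

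**Figure D3:**
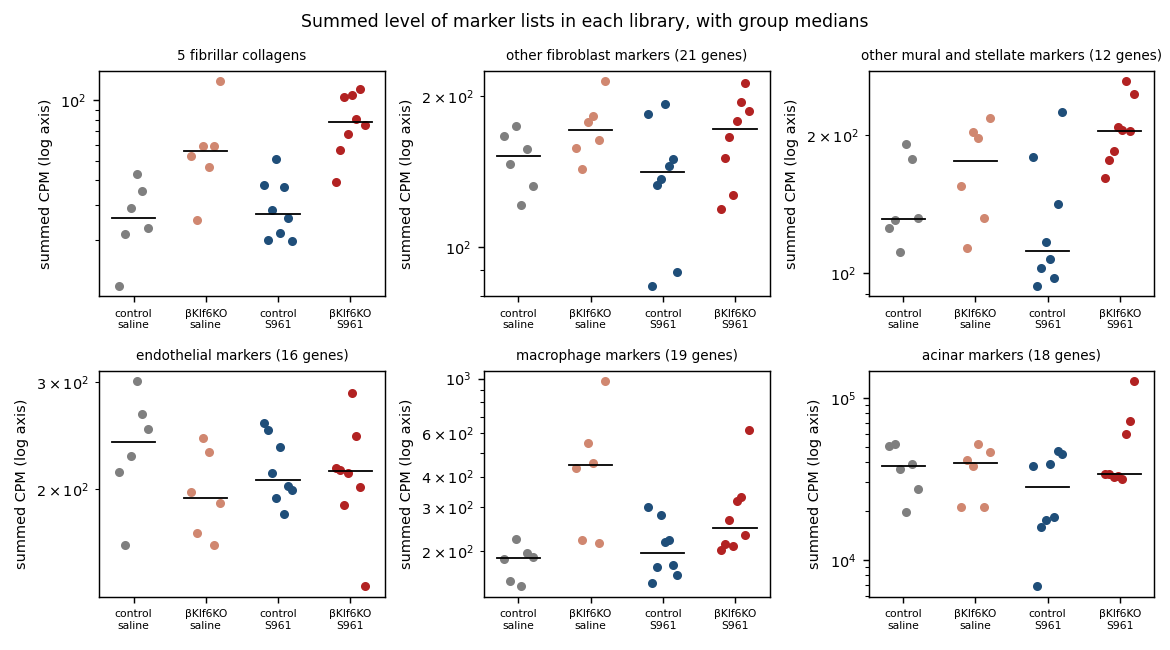
Summed CPM of the 5 fibrillar collagens and of 5 lists of cell type markers in every library (points; y axes are log scales) by labelled group (x axis), with lines at group medians. Fibrillar collagens have medians of 25.99, 55.8, 27.0 and 77.8 CPM from left to right. The ranges of the genotypes overlap under each treatment for both the fibrillar collagens and the endothelial markers.

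Markers of other cells also differed between the genotypes, and their part in the matrix results was not tested. After saline 5 of 18 macrophage genes were called higher and none after S961, with list medians of 1.02 and 0.59. Macrophage sums ran from 143.6 to 223.7 CPM in control and from 215.4 to 975.3 in βKlf6KO islets after saline, highest in replicate 6, which also had the highest fibrillar collagen sum of 125.2 CPM. Acinar genes had 1 of 16 called after S961 with a list median of 0.96, and their sum ran from 6860 to 46660 CPM in control and from 31590 to 126500 in βKlf6KO islets. Ductal genes had 1 of 12 called (Spp1, 1.16 ± 0.21), with sums of 659.1 to 2647 and 1981 to 6195 CPM. After saline the acinar and ductal list medians were -0.04 and 0.12 with no call. Endothelial genes had 0 of 16 called under either treatment, with medians of -0.03 and 0.13, and Schwann cell genes 0 of 7. No marker counted in these lists was at 0 reads in all libraries of a group. All 10 cell division genes were called higher in βKlf6KO than in control islets after saline. With S961 all 10 again had genotype differences above 0, and 5 were called. Among the 10 β-cell genes, the saline comparison called 2 lower in βKlf6KO islets and the S961 comparison called 4 lower. Slc2a2 was among them in both, at -0.73 ± 0.19 and -0.88 ± 0.17.

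Levels between genes were compared per kilobase of exon. Over all 28 libraries Thbs1 had the highest mean level at 28.3 CPM per kb, followed by Sparc at 19.5, Ctgf at 7.82, Timp1 at 6.37, Rgs5 at 6.23 and Col4a1 at 6.06. Fibrillar collagens, the main product of activated fibroblasts, stood lower, with Col3a1 at 1.85, Col5a2 at 1.44, Col1a1 at 1.0, Col1a2 at 0.753 and Col5a1 at 0.321 CPM per kb. Thbs2 and Nt5e were lowest, at 0.106 and 0.105 CPM per kb. Exon length was taken over all annotated transcripts of a gene, so levels of genes with long unused exons are understated.

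**Figure D4:**
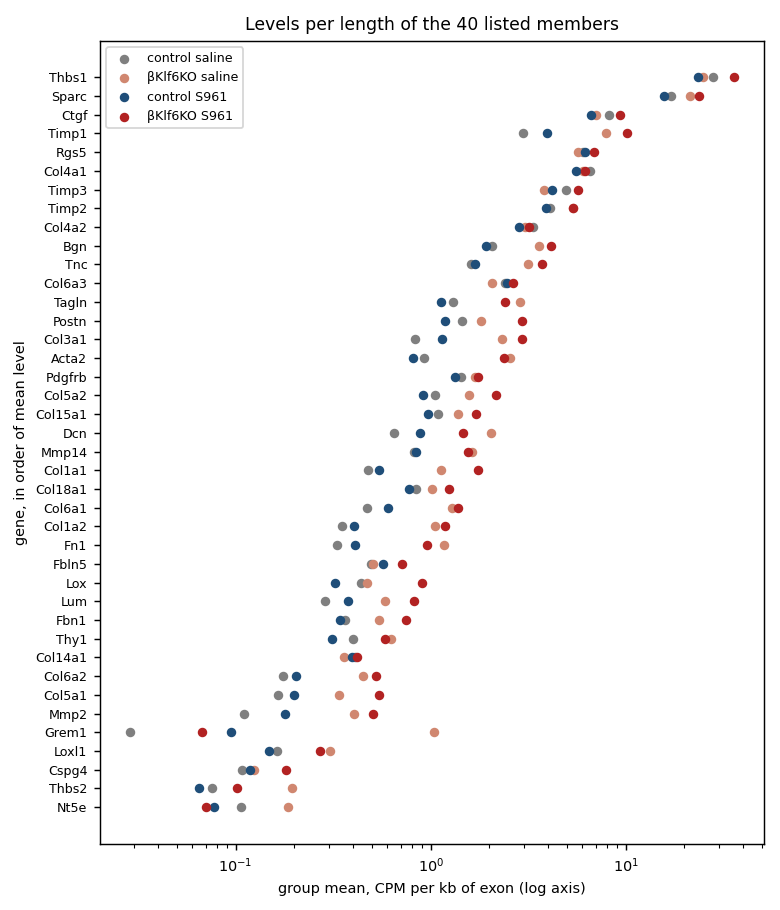
Group mean level of the 40 listed genes in CPM per kb of exon (x axis, log scale) in order of their mean over all libraries (y axis), with 1 point for each labelled group. Thbs1 and Sparc lie to the right at 28.3 and 19.5 CPM per kb on average, and Grem1 shows the widest spread between groups.

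Known partner genes were compared across the 28 libraries after the mean of each group was removed, by Pearson's r and Spearman's rho with permutation within groups and Benjamini-Hochberg adjustment over 12 pairs. Col4a1 and Col4a2, the chains of 1 collagen IV molecule, had r = 0.967 and rho = 0.971 (permutation adjusted p = 4e-05 for both). Col6a1 and Col6a2 had r = 0.951 and rho = 0.935, and Acta2 and Tagln had r = 0.897 and rho = 0.812, with the same adjusted p. The smallest p that the permutations can give is 1e-05. In each of these pairs the partner was the closest of all genes tested, or 0.00736% of them. Without the 2 libraries farthest from the median of the first gene, r was 0.973, 0.931 and 0.825. Within sequencing lanes of 7 libraries each, r ran from 0.960 to 0.988, from 0.948 to 0.982 and from 0.904 to 0.923.

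The fibrillar collagens also tracked each other. Col5a1 and Col5a2 had r = 0.752 and rho = 0.777, Col3a1 and Col5a2 r = 0.724 and rho = 0.626, and Col1a1 and Col1a2 r = 0.642 and rho = 0.638 (permutation adjusted p of r = 6e-05, 0.000309 and 0.0006). For Col1a1, 6.72% of all genes had an r at least as high as that of its partner chain Col1a2. That share was 2.05% for Col1a1 with Acta2 and 1.83% for Col1a1 with Col4a1. It was 0.324% for Col5a1 with Col5a2, 0.0809% for Col3a1 with Col5a2 and 0.243% for Dcn with Lum. Dcn and Lum had r = 0.747 and rho = 0.639, and Col1a1 had r = 0.684 and rho = 0.660 with Acta2 and r = 0.687 and rho = 0.675 with Col4a1 (permutation adjusted p of r = 0.000168, 0.0002 and 0.000315). Without 2 libraries these 6 values of r were 0.711, 0.625, 0.622, 0.691, 0.531 and 0.636. The order of the pairs was not tested, and after a correction for GC content r was 0.875 for Col5a1 and Col5a2, 0.876 for Col4a1 and Col4a2, 0.866 for Acta2 and Tagln and 0.780 for Col6a1 and Col6a2. Mmp14 and Mmp2 had r = 0.503 and rho = 0.515 (permutation adjusted p = 0.0143 and 0.011), and r = 0.448 without 2 libraries. Of all genes, 28.9% had an r with Mmp14 at least as high as that of Mmp2. This pair lost its call with quantile normalization (r = 0.262) and without the 3 libraries that stood apart (r = 0.389), and Col1a1 with Col4a1 lost it after the GC correction (r = 0.354). Within the 4 lanes r stayed above 0 in all 7 of these pairs, lowest at 0.150 for Mmp14 and Mmp2 and 0.274 for Col5a1 and Col5a2, both in lane 6, and 0.345 for Dcn and Lum in lane 7. The pair Myl9 and Cnn1 could not be computed, since neither had a row.

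The pericyte partners had a negative r. Pdgfrb and Rgs5 had r = -0.619 and rho = -0.542 (permutation adjusted p = 0.00101 and 0.00638), and -0.511 without 2 libraries. Of all genes, 69.1% had an r with Pdgfrb at least as high as that of Rgs5, and the rest had a more negative one. Within lanes r of this pair ran from -0.962 to -0.474. The value over all libraries changed with the libraries kept and with a GC correction, and the cause was not tested. Without the 3 libraries that stood apart r was -0.378, and after a correction for GC content it was 0.215 (permutation adjusted p = 0.0821 and 0.292). Lox and Loxl1 had r = 0.134 and rho = 0.177 (permutation adjusted p = 0.520 and 0.388), and 0.330 without 2 libraries. Their r ran from -0.510 to 0.466 within lanes and was 0.692 after the GC correction. Of all genes, 47.35% had an r with Lox at least as high as the 0.134 of Loxl1. In both pairs the genes differ in GC content, at 54.9% for Pdgfrb against 41.1% for Rgs5, and 43.9% for Lox against 61.0% for Loxl1. The tested members had a median GC content of 52.5%, beside 49.2% over all genes.

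**Figure D5:**
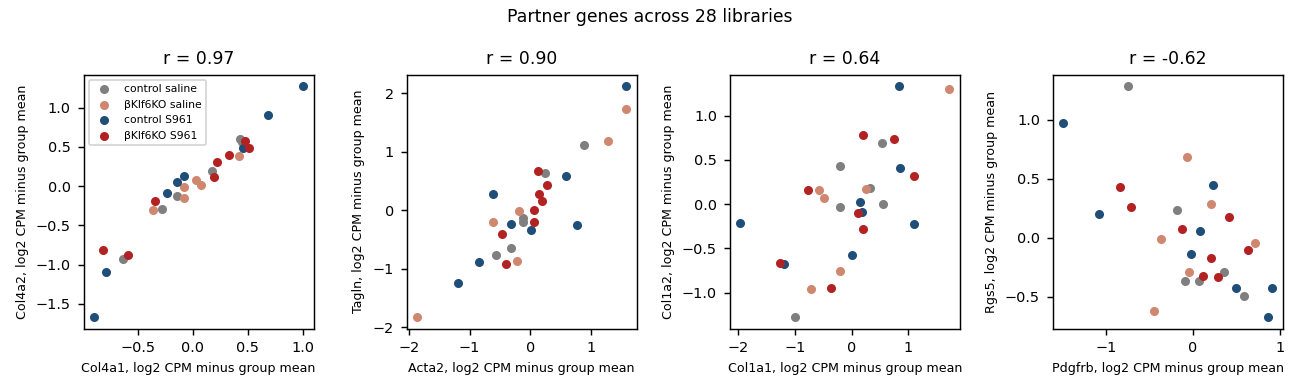
Log2 CPM minus the mean of its group for 4 pairs of partner genes (first gene on the x axis, second on the y axis), with 1 point for each of 28 libraries coloured by labelled group. Points of Col4a1 and Col4a2 fall close to a line (r = 0.97), those of Col1a1 and Col1a2 scatter more (r = 0.64), and those of Pdgfrb and Rgs5 slope down (r = -0.62).

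Several of the closest pairs are neighbours in the genome (GENCODE M21 on GRCm38). Col4a1 (chromosome 8, 11198423 to 11312826, minus strand) and Col4a2 (11312805 to 11449287, plus strand) point away from each other and their annotated ends overlap by 22 bases. Col6a1 and Col6a2 lie on the minus strand of chromosome 10 with 85161 bases between them, and Dcn and Lum on its plus strand with 46984 bases between them. Col3a1 and Col5a2 lie on chromosome 1 on opposite strands, 24614 bases apart. How the counting used strand was not given in the sources, so reads in that overlap cannot be assigned. Acta2 (chromosome 19) and Tagln (chromosome 9) tracked each other from different chromosomes, as did Col1a1 (chromosome 11) and Col1a2 (chromosome 6).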

How the data were processed

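The values were deposited by the authors as log2 CPM, 1 table of 14219 genes by 28 libraries, and every column matched 1 library title. The submitters' processing notes name STAR (2.5.3a), HTSeq (0.9.1), edgeR and the build GRCm38, and per the labels' protocols the kit kept strand and reads were single ends of 125 bases. The deposited log2 values could be inverted as reads plus 0.5 over a scaled library size. This returned whole reads (tolerance 0.05) for 100% of entries in each library.

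A gene was tested where 6 or more libraries reached 1 CPM, which kept 13591 and removed 628. The limma package (3.58.1, R 4.3.3) fitted a mean for each group over the 28 libraries and moderated the variances with an intensity trend. Tests were two-sided, with Benjamini-Hochberg adjustment over all genes, in 5 contrasts (genotype within each treatment, S961 within each genotype, and the difference). Fold changes are on the scale of the deposited log2 values, which understates changes of low genes. Each library was 1 mouse. No 2 libraries of a group agreed within sampling noise (86 pairs, smallest chi-square per degree of freedom 33.3). The 40 members were matched by symbol, and coordinates, exon lengths and GC content came from GENCODE M21. Scripts were tested on simulated data.

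The members and lists were chosen with earlier results of these data known. Every member is named. Values by library or as lowest, median and highest are given for called members and for the leading genes of each role, and up to 4 called genes with the smallest p for other lists. Alternatives were quantile normalization, median centring, low values raised to 1 CPM, the filter removed or set to 5 CPM, no trend, robust moderation, weights per library, each comparison fitted alone, lane or replicate number as a term, voom on recovered reads, and libraries left out. A GC correction in 20 bins, the first principal component as a covariate and a fit without 4 libraries were chosen after seeing the data.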

Additional observations from a re-analysis of the deposited data

Results flagged for a closer look

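Single libraries stood far from the rest of their group in 6 of 156 tests of a member within a group, where chance gives about 1 in 20. The flag compares the gap to the nearest library with the range of the group. In control saline islets Col1a2 was lowest in replicate 1, at 0.74 log2 CPM against 1.98 for the nearest library, and Fbln5 was highest in replicate 3, at 2.75 against 1.70. In βKlf6KO saline islets replicate 2 was lowest for both Lum, at -1.25 against 0.29, and Ctgf, at 3.36 against 4.30. In control S961 islets Col6a2 was lowest in replicate 2, at -2.72 against -0.16, and Nt5e was lowest in replicate 3, at -2.39 against -0.73.

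The Col1a2 value bears on a call. Without control saline replicate 1 the saline count of called members was 1 (Grem1) in place of 3.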

How the results depend on the processing

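No called member changed direction under any alternative. After saline the 3 called members became 24 with library weights, 5 without 3 libraries and 5 without 4, 6 with the GC correction and 8 with the first principal component as a covariate. All genes called rose too, from 378 to 3018, 690, 851, 1370 and 2821. A fit of only the groups compared called 2, Grem1 and Col6a1, and lost Col1a2 and Col3a1. Leaving out each library in turn gave 1 to 10, with 1 without control saline replicate 1 or 6 or βKlf6KO saline replicate 3 or 6, 6 without control S961 replicate 2 and 10 without βKlf6KO saline replicate 2. After S961 the 15 became 6 in a fit of only the groups compared, 6 without 4 libraries, 25 with the GC correction and 24 with the first principal component, while all genes called went from 593 to 35, 436, 2549 and 3829. Leaving out each library gave 8 to 21, with 8 without βKlf6KO S961 replicate 5 or 6 and 9 without control S961 replicate 2, 3 or 5 or βKlf6KO S961 replicate 7. Col1a1, Col1a2, Col3a1, Col5a1, Col5a2, Bgn, Timp1 and Acta2 stayed called in all 28 such fits. No setting tried called a member for S961 within a genotype or for the difference of responses, which has no fit of only the groups compared. Among all genes 11 were called in βKlf6KO islets with the floor at 1 CPM and 2 with library weights.

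For the partner pairs, Mmp14 and Mmp2 fell to r = 0.262 with quantile normalization and 0.389 without 3 libraries. Pdgfrb and Rgs5 had -0.378 without 3 libraries and 0.215 with the GC correction, Lox and Loxl1 0.692 and Col1a1 and Col4a1 0.354 with that correction. The causes were not tested. Same-numbered libraries did not deviate together (38 pairs, r from -0.712 to 0.850, median -0.0704), and 2 of 28 libraries correlated best with their own number, so the numbers do not pair mice. With replicate number as a block, 4 members were called after saline and 17 after S961, with 0 in the other 3 contrasts. Depth limits Grem1, Mmp2, Nt5e, Loxl1, Col6a2, Lum, Lox, Thy1 and Thbs2, which had under 10 reads in at least 1 library.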

Other observations

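Loxl2, a crosslinking enzyme with no row under its symbol, may be present under another name. The table lists the Ensembl identifier that GENCODE M21 gives to Loxl2 under the predicted symbol Gm21451, and that row was not counted among the members. It stood at 4.53 ± 0.15 log2 CPM (SD, n = 6) in control saline, 4.39 ± 0.22 (n = 6) in βKlf6KO saline, 4.55 ± 0.20 (n = 8) in control S961 and 4.34 ± 0.21 (n = 8) in βKlf6KO S961 islets. The genotype difference was -0.15 ± 0.12 after saline and -0.21 ± 0.10 after S961 (limma adjusted p = 0.650 and 0.222), while that of Lox after S961 was 1.70 ± 0.58 (limma adjusted p = 0.0822).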
